A study of Mus musculus with 2 samples.

Results

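In mouse heart, 1640 spliced transcript models of 1093 annotated genes combined splice sites in an order that no annotated model of the gene holds. They are classed NIC (a new combination of known splice sites) in at least 1 of the deposited transcript tables. Set against the GENCODE M21 annotation, 1379 of the 1640 held annotated sites alone and 261 held a site absent from it. The rule took every NIC model of a known gene, treated models with the same introns on the same strand as 1 model in both libraries, and kept those with at least 5 NIC reads in the libraries together. The 1640 models are 10.7% of the 15349 NIC models of known genes with any reads, and they held 69.9% of NIC reads in replicate 1 and 68.8% in replicate 2. The models were chosen by their novelty class and read number, so both are given as a description. Counted in 1 library at a time with the same minimum, replicate 1 alone gave 692 models and replicate 2 alone gave 959.

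The series holds 1 group, heart tissue of male B6CASTF1/J mice aged 18 to 20 months, the first-generation cross of a C57BL/6J and a CAST/EiJ parent, with no treatment named. Both long-read libraries were made from 2 µg of total RNA and carry the labels of separate biological replicates with the same donor identifier, so there was no contrast between conditions. The tests below set 1 library against the other. Their p-values account for counting error only. The spread between these samples, which may be technical, was not estimated for these tests, so a small p-value can reflect it. Intervals are 95% Clopper-Pearson intervals of read counts.

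Splicing joins exons by pairing a donor site at the 5′ end of an intron with an acceptor site at its 3′ end. A gene makes several mRNAs when an exon is skipped, when a nearby donor or acceptor is used, or when transcription starts at another first exon. In striated muscle, regulated splicing sets the isoforms of sarcomere, calcium-handling and membrane-remodelling proteins. A long read spans most or all of an mRNA, so it shows which of these choices occur together in 1 molecule.

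Replicate 1 held 688861 mouse reads and replicate 2 held 1003999. The cardiomyocyte markers Myh6, Tnnt2, Tnni3, Actc1, Ryr2, Pln, Myl2 and Myl3 summed to 42209 CPM (reads scaled to a common library total) in replicate 1 and to 43878 CPM in replicate 2. The 7 skeletal muscle markers summed to 1.45 and 0.996 CPM, and 5 of them had no reads. A count of 0 allows up to 4.36 CPM in replicate 1 and 2.99 CPM in replicate 2.

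A frequent small change was a choice between acceptors 3 nucleotides (nt) apart. Such tandem acceptors end in AG at both positions and add or remove 3 nt of mRNA without a frameshift. Against its closest annotated model, an acceptor differed in 298 places of 215 genes, and 137 of these (46.0%, in 94 genes) were moved by exactly 3 nt. The 3 bases could be read from annotated exons for 91 of the 97 distinct site pairs, and in all 91 they ended in AG. The mRNA around 6 pairs follows, in the form with the longer exon and with the 3 bases between the acceptors in capitals, to show how alike these sites are.
Myh6: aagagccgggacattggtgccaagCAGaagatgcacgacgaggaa
Srl: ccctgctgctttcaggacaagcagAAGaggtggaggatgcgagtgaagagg
Ctbp1: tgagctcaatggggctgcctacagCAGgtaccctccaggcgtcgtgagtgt
Coro6: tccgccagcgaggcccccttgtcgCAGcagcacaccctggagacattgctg
Cnbp: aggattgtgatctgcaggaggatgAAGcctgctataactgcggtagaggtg
Mff: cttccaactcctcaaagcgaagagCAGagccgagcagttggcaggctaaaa

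These bases lie, in mm10, on chromosome 14 from 54942002 to 54942004 (Myh6), chromosome 16 from 4493878 to 4493880 (Srl), chromosome 5 from 33248684 to 33248686 (Ctbp1), chromosome 11 from 77469376 to 77469378 (Coro6), chromosome 6 from 87845321 to 87845323 (Cnbp) and chromosome 1 from 82735416 to 82735418 (Mff). All 6 windows are coding. Coro6, Cnbp and Mff were chosen after their values were seen.

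Myh6 encodes the alpha myosin heavy chain, the main motor of the adult mouse ventricle. Its most abundant new combination, with the 3 added bases, held 1543 reads in replicate 1 and 2161 in replicate 2, out of 11708 and 15468 Myh6 reads. A second Myh6 model with the same added bases held 523 and 682 reads, or 4.47% and 4.41%. Over all Myh6 models of any class, the acceptor that adds CAG was used in 28.1% of the reads that use either acceptor in replicate 1 and 29.2% in replicate 2. Read from the annotated start, both new models gained 1 codon and kept the annotated stop codon.

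Srl encodes sarcalumenin, a calcium-binding protein of the sarcoplasmic reticulum. Its leading model held 582 and 772 reads, or 65.5% (62.2 to 68.6) and 65.2% (62.4 to 67.9) of the gene, and at the intron of this model the longer exon took 88.7% and 90.3%. The same acceptors joined to another Srl donor gave 86.3% and 90.8%. Ctbp1, a transcriptional corepressor, had 156 and 166 reads on its leading model, which was 50.6% and 46.8% of the gene, and its longer exon took 84.1% and 83.2%. Each of these models was the one with the most reads in its gene in both libraries. Coro6, an actin-binding coronin, used its acceptors nearly equally, with the longer exon at 50.6% in replicate 1 and 48.8% in replicate 2. In Cnbp, a nucleic acid-binding zinc finger protein, the longer exon was the minor form at 23.2% and 23.8%, and in Mff, the mitochondrial fission factor, at 21.5% and 26.1%.

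At 82 pairs of annotated acceptors 3 nt apart, counted per donor, a model of the set differed from its closest annotated model. Other annotated pairs were not counted, so the choice of models favours pairs in which both acceptors have reads. Of the 82 pairs, 56 had at least 20 reads in each library. In 36 of the 56 (64.3%) each acceptor took between 10 and 90% of reads in both libraries. The use of the longer exon differed by a median of 3.88 percentage points between libraries, and the 95% intervals of the libraries overlapped in all 56 pairs.

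**Figure D1:**
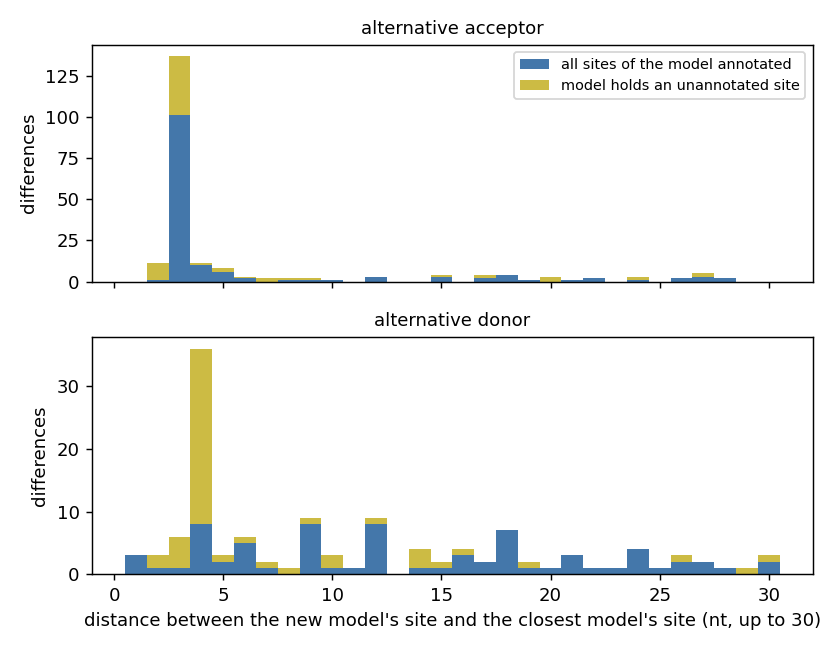
Number of alternative acceptors (top) and donors (bottom) by the distance in nt between the site of the new model and that of its closest annotated model, up to 30 nt, split by whether the model holds a site absent from the annotation. The acceptor plot peaks at 3 nt with 137 differences, and the donor plot at 4 nt with 36, of which 8 are in models with annotated sites alone.

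Donors showed another spacing. Of 284 alternative donors in 222 genes, 36 (12.7%) were moved by exactly 4 nt and 6 by 3 nt. Several models can share a site, and the 36 lay at 27 distinct site pairs in 22 genes. The 4 bases could be read from annotated exons for 9 of the 27. Only 8 of the 36 lay in models whose sites were all annotated, and in 32 of the 36 the new model had the longer exon. Vdac3, an anion channel of the outer mitochondrial membrane, held the most reads of this kind. Its model had 354 reads in replicate 1 and 412 in replicate 2, or 87.0% (83.3 to 90.1) and 86.2% (82.8 to 89.2) of the gene. The same chain was classed NIC in replicate 1 and NNC (holding a new splice site) in replicate 2.

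The antizyme genes Oaz1 and Oaz2 had new models that lack an annotated intron of 4 nt. Antizymes restrain polyamine synthesis, and their mRNA is translated with a programmed ribosomal frameshift. The mRNA of the new models, which run through the site without a gap, is shown with the 4 bases that the annotated intron leaves out in capitals.
Oaz1: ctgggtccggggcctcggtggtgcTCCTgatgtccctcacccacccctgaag
Oaz2: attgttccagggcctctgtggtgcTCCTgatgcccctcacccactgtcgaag

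The capitals lie on chromosome 10 from 80828292 to 80828295 for Oaz1 and on chromosome 9 from 65686269 to 65686272 for Oaz2. The leading Oaz1 model held 1382 reads in replicate 1 and 1885 in replicate 2, or 96.4% (95.3 to 97.3) and 96.4% (95.5 to 97.2) of the gene. The leading Oaz2 model held 265 and 345 reads, or 89.2% and 89.6%. The closest annotated models, Oaz1-201 and Oaz2-201, had no reads in either library. In all, 7 models lacked an annotated intron under 30 nt, 4 of them in Oaz1 and 1 each in Oaz2, Nadk2 and Mpc1. Among genes with 20 reads or more per library, none of the 20 annotated introns under 30 nt was present in any model with reads.

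Very short annotated exons were another such place. The annotated mRNA around 3 exons absent from the new models follows, with the exon in capitals, because the exon is too short to find in the values alone.
Phb2: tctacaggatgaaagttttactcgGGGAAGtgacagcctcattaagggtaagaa
Sept7: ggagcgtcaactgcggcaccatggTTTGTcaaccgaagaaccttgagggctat
Mybpc3: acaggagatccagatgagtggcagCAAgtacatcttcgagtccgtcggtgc

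These exons lie on chromosome 6 from 124716425 to 124716430 (Phb2), chromosome 9 from 25265302 to 25265306 (Sept7) and chromosome 2 from 91124275 to 91124277 (Mybpc3). Phb2, a prohibitin of the inner mitochondrial membrane, had 179 reads in replicate 1 and 192 in replicate 2 on the model without its 6-nt exon, or 93.7% and 95.5% of the gene. Sept7, a septin of the cytoskeleton, had 105 and 107 reads on the model without a 5-nt exon, or 90.5% and 87.0%. Mybpc3 encodes cardiac myosin-binding protein C. Its model without a 3-nt exon, which also holds an unannotated splice site, had 31 reads in each library, or 8.88% and 7.08% of the gene. Followed from the annotated start, the frame of the Sept7 model ended after 25 codons against 437, and that of the Phb2 model lost 2 codons.

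Annotated exons of this size were also absent from models of other classes. Among genes with 20 reads or more per library, 0 of 53 annotated internal exons under 10 nt were present in a model with reads, and 1 of 45 from 10 to 14 nt. The share was 23.9% (15.4 to 34.1) at 15 to 20 nt, 67.6% (62.6 to 72.3) at 21 to 30 nt and 91.2% at 61 to 120 nt. Read alignment was made by the authors, and its part in the absence of these exons was not tested. Of the 288 models that skip an exon by a new junction, 8 spanned exons under 15 nt alone. The Phb2 model left its exon out by an annotated junction and is not among the 288. The closest annotated model held an internal exon under 15 nt or an intron under 30 nt for 29 of all 1640 models. The same was true for 6 of the 34 models with at least 50% of their gene in both libraries.

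**Figure D2:**
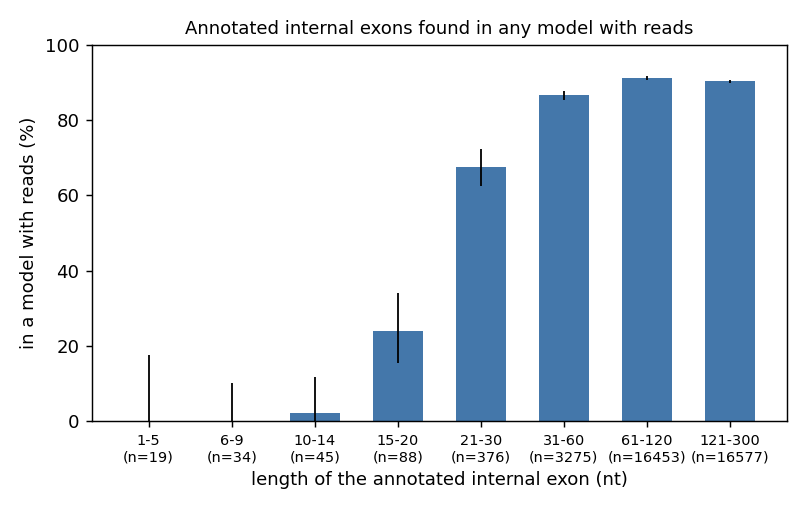
Share of annotated internal exons, by exon length in nt, that were present in any model with reads, in the 3817 genes with an internal exon and at least 20 reads in each library; bars are shares, lines 95% Clopper-Pearson intervals and n the number of annotated exons. The share is 0 under 10 nt and 91.2% from 61 to 120 nt.

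Most of the models rearranged annotated junctions. In 1048 of 1640 (63.9%) every junction was annotated in the gene and the combination was new. A further 317 (19.3%) held a new junction between annotated sites, and 14 joined sites of another gene. The remaining 261 (15.9%) went against the class name, since they held at least 1 splice site absent from the GENCODE M21 annotation. Those 261 held 15.5% of the models' reads in replicate 1 and 16.0% in replicate 2, and 108 of them were classed NNC in the other library. In all, 1457 chains (88.8%) were classed NIC in both libraries, 27 were classed ISM (an incomplete match) in 1 of them, and 48 had reads in 1 library alone.

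Against the closest annotated model of the gene, 1394 models (85.0%) had exactly 1 difference. An exon was skipped in 414 models (25.2%), an acceptor differed in 289 (17.6%), a donor in 281 (17.1%), the first exon in 238 (14.5%) and an exon was added in 225 (13.7%). The skipped exon was bridged by a junction annotated in another model in 204 of 429 places and by a new junction of annotated sites in 224. Skipped stretches had a length divisible by 3 in 57.8% of places and added exons in 66.0%, beside 40.4% of the 14350 internal exons of the same genes. These places are counted once per model, so models that share an exon count it repeatedly, and a stretch can hold several exons. The models had a median of 11.0 exons and 2446.0 nt, and 1622 (98.9%) came from protein-coding genes.

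**Figure D3:**
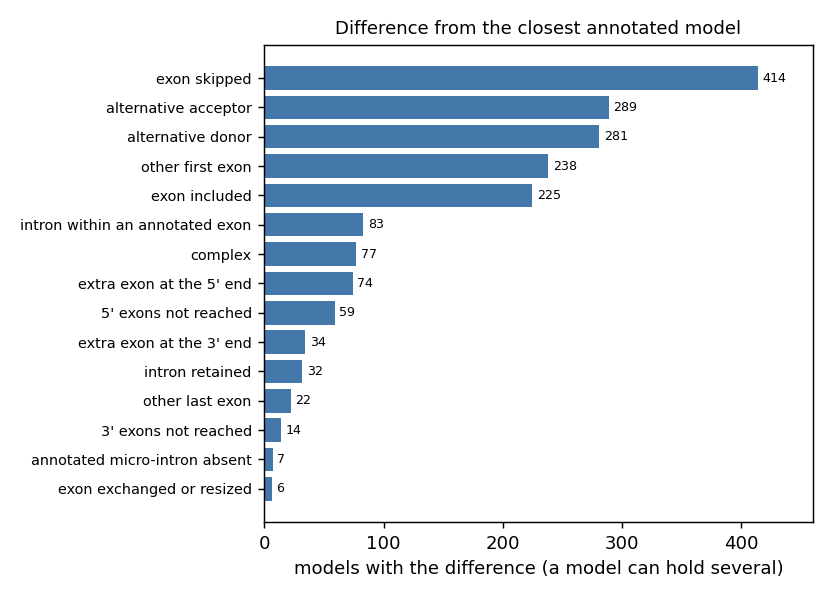
Number of models with each kind of difference from the closest annotated model of the gene; a model with several differences is counted under each. Skipped exons lead with 414 of 1640 models, before alternative acceptors with 289 and alternative donors with 281.

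New junctions of known sites were found in 334 models (20.4%), with 325 distinct junctions. In 288 of these models (86.2%) a new junction spanned at least 1 internal exon of any annotated model of the gene, here called skipping. In 57 skipping models the exon is not in the closest annotated model. Replicate 1 alone gave 115 models with a new junction and 96 with skipping, and replicate 2 alone gave 184 and 156. The 288 skipping models came from 250 genes and held 12.7% of the models' reads in replicate 1 and 13.4% in replicate 2. Of 224 skipping junctions with exons of the closest model inside, 191 (85.3%) spanned 1 exon and 27 spanned 2.

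The skipping form was mostly the minor one. In 201 skipping junctions with at least 20 informative reads in each library, the junction took a median of 5.13% of reads in replicate 1 and 6.02% in replicate 2, against models of any class that held both sites without joining them. It took under 10% in both libraries at 123 (61.2%) of these junctions and over 50% in both at 12. The 12 include the junctions of Sept7 and Mybpc3, which spanned only annotated exons under 10 nt. They also include those of Dctn1 and Higd1a, for which no model held both sites without joining them.

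Idh3b and Mpc1 led the minority in which a skipping junction dominated. Idh3b is the beta subunit of the mitochondrial NAD-dependent isocitrate dehydrogenase. Its model on chromosome 2 from 130279309 to 130284434 held 485 reads in replicate 1 and 683 in replicate 2, or 80.6% (77.2 to 83.7) and 79.1% (76.3 to 81.8) of the gene. The new junction reached an acceptor 289 nt farther on and spanned an annotated exon of 171 nt, and it took 98.5% and 99.4% of informative reads. The new reading frame had 380 codons against 384 in Idh3b-201 and ended at another stop codon in the last exon. Mpc1 is a subunit of the mitochondrial pyruvate carrier. Its model on chromosome 17 from 8283762 to 8297661 skipped an 81-nt exon of Mpc1-202 and held 370 and 608 reads, or 96.4% and 94.0% of the gene, while Mpc1-202 had 2 and 7. Over all annotated models of the gene, the new junction spanned 4 exons, of 139, 4, 81 and 4 nt. The new model lacks the annotated start codon, so no frame was read. The mRNA at these junctions is given because no annotated model of the gene joins these sites, with 3 bases on each side of the junction in capitals.
Idh3b: aaagctggcAAGGTTcgaacctca
Mpc1: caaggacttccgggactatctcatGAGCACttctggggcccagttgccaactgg

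Card19, Cds1 and Cep63 had skipping and inclusion side by side. Card19, a mitochondrial CARD-domain protein, skipped a 60-nt coding exon in 46 and 59 reads of its leading model, and the skipping junction took 56.7% (45.8 to 67.1) and 54.7% (45.7 to 63.5) of informative reads. Cds1, an enzyme of phospholipid synthesis, skipped 3 exons of 83, 88 and 69 nt, together 240 nt, and the model lost 80 codons and kept its stop codon. Its junction took 60.6% in replicate 1 and 52.7% in replicate 2, and the model held 19 and 29 reads. Cep63, a centrosomal protein, had 20 and 19 reads, or 43.5% and 42.2% of the gene, and its junction took 71.0% and 66.7%. In Slc27a1, a fatty acid transport protein, the junction had 48 skipping and 12 including reads in replicate 1 and 86 and 12 in replicate 2, and the model took 20.1% and 28.0% of the gene. Against their closest annotated models, the Cep63 and Slc27a1 models differed only by a donor, moved by 359 and 16 nt. Dctn1, the large subunit of dynactin, had 68 and 109 reads, or 42.0% and 39.5%. Its junction spanned annotated exons of 21 and 18 nt, and no model with reads held both of its sites without joining them. The model held another 21-nt exon that its closest model Dctn1-201 lacks.

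The other named skipping models were minor forms of their gene. A Myh6 model that skipped a 133-nt exon held 24 and 39 reads, or 0.205% and 0.252% of the gene, and left the coding sequence the same. Higd1a, a hypoxia-induced mitochondrial protein, had 30 and 43 reads, or 8.26% and 7.17% of the gene. Its junction took all 30 and 43 informative reads, because no other model with reads held both of its sites. Higd1a-201, whose acceptor lies 4 nt away, had 322 and 538 reads and could not count there. Ppif, the mitochondrial cyclophilin of the permeability transition, skipped a 97-nt exon in 20 and 19 reads, and this junction took 5.45% and 4.16% of informative reads.

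Among the 8 models with a new junction and no skipped exon that had the most reads, only that of Yjefn3 led its gene in both libraries. Map7d1, a microtubule-associated protein, had 30 and 38 reads on a model that moved a donor by 9 nt and lost 3 codons, or 8.43% and 9.13% of the gene. Eno3, the muscle enolase, had 36 and 28 reads, or 1.80% and 1.35%. The Yjefn3 model had 16 reads in each library, or 55.2% and 47.1% of the gene, and joined sites of another gene. The others lay in Srl, Trp53i11, Krtcap2, Pacsin3 and again Map7d1, with between 6 and 18 reads per library.

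Several skipped and added exons lay in coding sequence. The annotated or new mRNA around 4 of them follows, with the variable exon in capitals, because these bases are what the isoforms differ in. Camk2d and Ldhb left the exon out of the new model, and Tmed2 and Dctn1 held it.
Camk2d: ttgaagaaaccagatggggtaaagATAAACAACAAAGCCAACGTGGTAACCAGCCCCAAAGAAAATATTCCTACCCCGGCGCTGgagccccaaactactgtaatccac
Ldhb: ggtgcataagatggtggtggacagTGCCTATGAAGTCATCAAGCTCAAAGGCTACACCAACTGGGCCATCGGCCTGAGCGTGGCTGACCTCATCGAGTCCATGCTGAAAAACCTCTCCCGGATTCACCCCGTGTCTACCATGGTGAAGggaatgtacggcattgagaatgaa
Tmed2: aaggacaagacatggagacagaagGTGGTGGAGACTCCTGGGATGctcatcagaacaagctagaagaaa
Dctn1: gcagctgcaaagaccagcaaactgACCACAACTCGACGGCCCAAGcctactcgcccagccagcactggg

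The exons lie on chromosome 3 from 126805857 to 126805916 (Camk2d, 60 nt), chromosome 6 from 142492493 to 142492616 (Ldhb, 124 nt), chromosome 5 from 124543487 to 124543507 (Tmed2, 21 nt) and chromosome 6 from 83187764 to 83187784 (Dctn1, 21 nt). Camk2d is the main calcium- and calmodulin-dependent kinase of the heart. Its model had 24 reads in replicate 1 and 41 in replicate 2, or 22.6% (15.1 to 31.8) and 23.7% (17.6 to 30.7) of the gene, and was the leading Camk2d model in both. Ldhb, the heart subunit of lactate dehydrogenase, had 63 and 58 reads without the exon, or 2.91% (2.24 to 3.70) and 1.98% (1.51 to 2.56). The 124 nt of Ldhb are not divisible by 3, and the new frame had 259 codons against 334. Tmed2, a cargo receptor of early secretory vesicles, had 285 and 325 reads with the 21-nt exon, or 85.3% and 84.2% of the gene, and gained 7 codons.

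Eno1 exchanged 1 exon for another of the same length. Eno1 is the widely expressed enolase of glycolysis. Its new model, on chromosome 4 from 150237240 to 150248873, held 87 reads in replicate 1 and 100 in replicate 2, or 71.3% (62.4 to 79.1) and 73.0% (64.7 to 80.2) of the gene, and Eno1-202 held 30 in each. Both exons have 59 nt, share 30 aligned bases (50.8%) and leave the frame at 434 codons. Eno1 has close relatives in the genome, so reads placed on it are uncertain to that extent. The exons are shown in capitals with 12 bases of the shared neighbours on each side. The first is the exon of Eno1-202 and the second that of the new model.
Eno1-202: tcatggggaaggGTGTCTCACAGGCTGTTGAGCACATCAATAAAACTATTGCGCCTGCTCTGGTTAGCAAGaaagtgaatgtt
Eno1: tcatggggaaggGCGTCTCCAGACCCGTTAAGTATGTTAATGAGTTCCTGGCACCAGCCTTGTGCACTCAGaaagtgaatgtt

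The annotated exon lies on chromosome 4 from 150242122 to 150242180 and the other from 150241767 to 150241825.

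Shares could be set for the 1346 models (82.1%) whose gene had at least 20 reads in each library. A model took a median of 5.71% of the reads of its gene in replicate 1 and 5.75% in replicate 2. The middle 50% of models lay between 1.83 and 13.3% in replicate 1 and between 1.93 and 13.0% in replicate 2. With members taken from replicate 1 alone the median was 12.2%, and with replicate 2 alone 8.77%. Models of annotated junctions had a median of 7.32% and 6.76%, those that skip an exon by a new junction 3.79% and 4.43%, and those with an unannotated site 2.23% and 2.28%. Because a model needs at least 5 reads, a low share can be seen only in genes with many reads. These medians were not compared at equal gene reads. Over all models the median was 7.06% with genes of at least 10 reads in each library and 3.30% with at least 50. The 1093 genes had a median of 101.0 reads over both libraries, against 27.0 in the 9231 other spliced genes with at least 5 reads. A gene of the set needs at least 5 reads on 1 new model, so the rule itself favours genes with more reads.

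In 34 models the share was at least 50% in both libraries, and 113 models (8.40%) had the most reads of their gene in both. Beside the genes above, the leading forms included Uchl3, a ubiquitin hydrolase, at 91.5% and 91.1%, Gbe1, the glycogen branching enzyme, at 92.9% and 85.0%, and Mbnl2, a muscleblind splicing regulator, at 78.1% and 73.8%. The closest annotated model had no reads in 12 of the 34, against 295 of all 1640 (18.0%). It held an internal exon under 15 nt or an intron under 30 nt in 6 of the 34 and in 29 of all 1640. The Gbe1 model moved both ends of an intron by 4 nt, which left the spliced sequence the same.

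**Figure D4:**
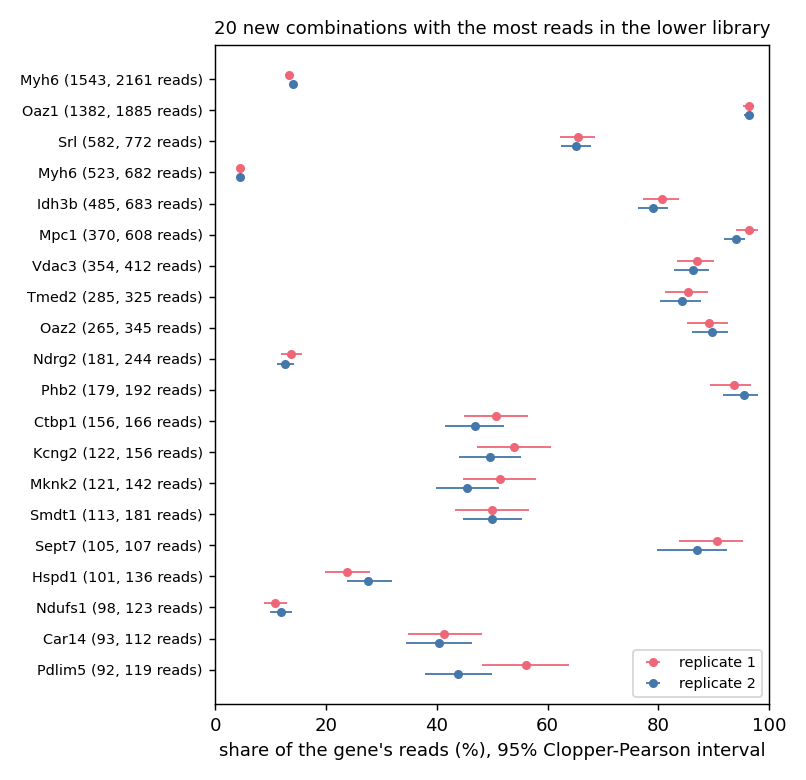
Share of the gene's reads in percent, with 95% Clopper-Pearson intervals, for the 20 models whose smaller read number of the libraries is highest; red points are replicate 1 and blue points replicate 2, and each label gives the reads in both. The intervals of the libraries overlap for all 20 models, and the shares run from 4.41% in Myh6 to 96.4% in Oaz1.

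The remaining models among the 20 with the most reads were between these extremes. Ndrg2, a stress-responsive cytosolic protein, had another first exon in 181 and 244 reads, or 13.6% and 12.6%. Kcng2, a modulatory potassium channel subunit, had 122 and 156 reads, or 54.0% and 49.5%, also with another first exon. Mknk2, a kinase of the initiation factor eIF4E, had 121 and 142 reads, or 51.3% and 45.5%. Smdt1, a regulator of the mitochondrial calcium uniporter, had 113 and 181 reads, out of 226 and 362 reads of the gene. Hspd1, the mitochondrial chaperonin, had 101 and 136 reads (23.7% and 27.6%), and Ndufs1, a complex I subunit, had 98 and 123 (10.8% and 11.8%). Car14, a carbonic anhydrase, had 93 and 112 reads (41.3% and 40.3%), and Pdlim5, a Z-disc protein, had 92 and 119 (56.1% and 43.8%). Mknk2, Smdt1, Car14 and Pdlim5 held an unannotated site.

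A reading frame could be followed from the annotated start codon in 1313 models. The stop codon was the annotated one with a changed length in 493 (37.5%), and the coding sequence was the same in 453 (34.5%). In 198 (15.1%) the frame reached another stop codon more than 50 nt before the last junction, and in 169 (12.9%) another stop codon nearer to the end. The corresponding counts for the 224 models with a frame that skip an exon by a new junction were 108 (48.2%), 26 (11.6%), 45 (20.1%) and 45 (20.1%). These frames assume translation from the start codon of the closest coding model and without a frameshift. The Oaz1 and Oaz2 models fell among the 198 under that assumption, with 68 and 32 codons before the stop.

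Of the 255 distinct exons of closest models that lay inside a skipping junction, 117 (45.9%, 39.6 to 52.2) had a length divisible by 3, beside 40.4% (39.6 to 41.2) of 14350 internal exons of the same genes. Within the coding part the share was 50.5% (43.5 to 57.4) of 210 skipped exons and 42.1% (41.2 to 43.0) of 11866 exons. The skipped exons had a median length of 114.0 nt and all internal exons 118.0 nt.

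Gene groups of heart biology are given by the share of their reads on these models, beside 2.76% of all mouse reads in replicate 1 and 2.53% in replicate 2; differences between groups were not tested. The 26 genes of translation and polyamine metabolism had 31.8% of reads in replicate 1 and 32.3% in replicate 2 on 13 models of 6 genes, with Oaz1 at the head. The 42 splicing regulators had 14.1% and 15.4% on 21 models of 9 genes, none of which skipped an exon by a new junction. Hnrnpk, an RNA-binding protein of the nucleus, had 77 and 97 reads (37.6% and 33.4%) on its leading model, which holds an unannotated site. Mbnl2 had 75 and 104 reads on a model that skipped a 95-nt exon by an annotated junction. Sarcomere and Z-disc genes held 69 models in 16 of 36 genes, with 5.60% and 5.45% of reads in replicates 1 and 2. Myh6 alone gave 39 of the 69 models.

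Respiratory chain and ATP synthase genes had 0.314% and 0.273% of reads on 31 models in 15 of 44 genes, and fatty acid oxidation genes 0.820% and 0.784% on 23 models in 10 of 31. Cd36, a fatty acid uptake protein, had 49 and 75 of 410 and 707 reads from another first exon. Crat, the carnitine acetyltransferase, had 21 and 31 reads (4.23% and 4.12%). Pyruvate, TCA cycle and carrier genes had 3.17% and 3.30%, glycolysis and glycogen genes 3.00% and 2.67%, calcium handling and excitation genes 3.60% and 2.97%, and membrane traffic and folding genes 3.63% and 3.34%. Atp2a2, the sarcoplasmic reticulum calcium pump, had 26 and 49 reads (0.634% and 0.832%) with an added 57-nt exon, on a model that holds an unannotated site and was classed NNC in replicate 2. Psap, a lysosomal sphingolipid activator, had 12 and 16 reads (9.92% and 9.14%), and Eef1d, an elongation factor subunit, 37 and 45 (31.4% and 28.7%) with an added 57-nt exon.

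Most genes gave 1 model. Of the 1093 genes, 804 (73.6%) had 1, 175 had 2, 68 had 3 and 46 had 4 or more. Myh6 had 39, of which 33 held an unannotated site, and all 39 together took 20.8% of Myh6 reads in replicate 1 and 21.7% in replicate 2. Most of these 2432 and 3360 reads were on the model with 1543 and 2161 reads and the model with 523 and 682. Both of those models hold annotated junctions alone. An acceptor moved by 3 nt was present in 17 of the 39. Myh6 and its neighbour Myh7 are alike in sequence, so reads placed on them are uncertain to that extent. Ktn1, the kinesin-binding protein kinectin, had 12 models of annotated sites with 5 to 22 reads each, of which 5 skipped an exon and 4 added one. Mff had 9 models with 52.5% and 53.6% of its reads. Dmpk, the myotonic dystrophy kinase, also had 9, with 48.7% and 41.6%.

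NIC models of known genes took 3.81% (3.76 to 3.86) of the mouse reads of replicate 1 and 3.51% (3.47 to 3.54) of those of replicate 2. The mean was 3.66% ± 0.214 (SD, n = 2 libraries with the same donor identifier, so this spread may be technical). By a two-sided Fisher's exact test of the reads, adjusted over 6 transcript classes, the difference between libraries gave p = 6.65e-25. Incomplete (ISM) models moved the other way, with 12.2% in replicate 1 and 14.3% in replicate 2. With ISM and genomic models left out of the total, the NIC share was 4.63% in replicate 1 and 4.40% in replicate 2. What causes the difference was not tested. Of the 1640 models, 1592 (97.1%) had reads in both libraries, beside 98.9% of 9560 known spliced models with at least 5 reads.

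The share of the gene was not called different between libraries for any of the 1346 models tested (Fisher's exact test with Benjamini-Hochberg adjustment over 10304 models of known genes), beside a background of 0.223% of all models called. An unadjusted p under 0.05 was found for 58 of the 1346 (4.31%), beside 5.33% of all models tested. Shares in the libraries had a Spearman correlation of 0.840 across models, which are not independent, and a median absolute difference of 2.11 percentage points, and their 95% intervals overlapped for 1345 of 1346.

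**Figure D5:**
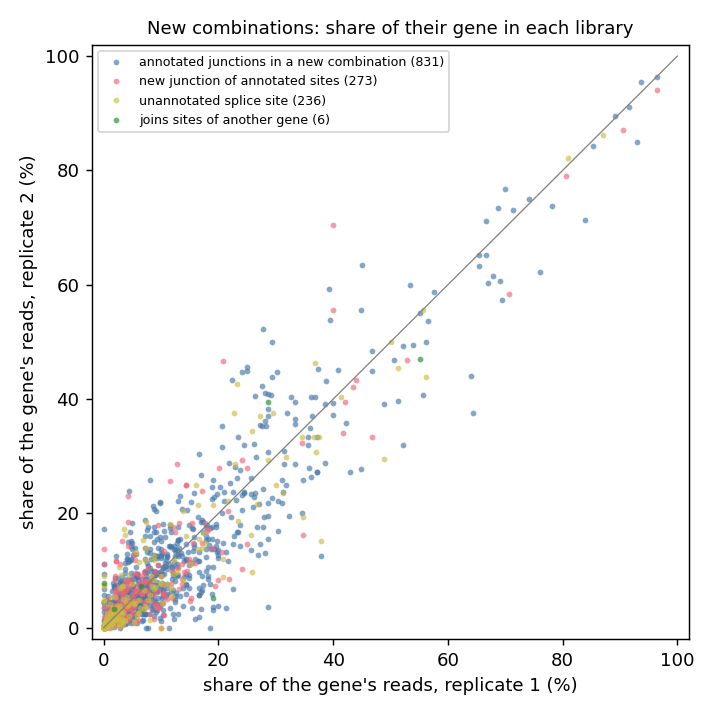
Share of its gene's reads in replicate 1 (horizontal axis, percent) and replicate 2 (vertical axis, percent) for the 1346 models whose gene had at least 20 reads in each library, coloured by the kind of junctions; the line marks equal shares. Most points lie near the origin, with medians of 5.71% and 5.75%, and 34 models lie at or above 50% on both axes.

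The level differed between libraries for 2 of the 1640 models, or 0.122%, by an exact binomial test that expects reads in proportion to library depth (Benjamini-Hochberg adjustment over 15789 models), of which 1.37% were called. An unadjusted p under 0.05 was found for 91 models (5.55%), beside 8.47% of all. Gm34302, an uncharacterised predicted gene whose model holds an unannotated site, had 78 reads (113 CPM) against 214 (213 CPM) in the other library, with an adjusted p of 0.000119 by the exact test. The model took 19.0% and 21.5% of that gene. Tfpi, the tissue factor pathway inhibitor of coagulation, had 17 reads (24.7 CPM) against 4 (3.98 CPM), with an adjusted p of 0.0200 by the exact test. The Tfpi call was lost with the deeper library thinned, with no read minimum and with DESeq2 size factors, whereas Gm34302 was called under all 5 alternatives. With DESeq2 size factors 11 of the 1640 models were called, all 11 higher in replicate 2, beside 486 of all 15789 models. Those size factors shifted all models by 0.38 (log2, replicate 2 over 1).

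At the minimum of 5 reads stood 308 models (18.8%), for example those of 0610040J01Rik with 0 and 5 reads and 4930402H24Rik with 1 and 4. Just outside it were 500 models with 4 NIC reads, for example in 4632428C04Rik with 2 and 2 reads and 4933412E12Rik with 1 and 3.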

How the data were processed

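Long-read RNA-seq of 2 heart libraries was analysed. The authors deposited, per library, a table of unnormalised read counts for each transcript model and a gtf file of the models. Per the deposited descriptions, mm10 and GENCODE M21 were used, and the source column of the deposited gtf files names TALON for the new models. The sources used here name no aligner, filter or version. Spike-in sequences were left out.

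Models were matched by introns, and each was set against the annotated model of its gene with the fewest differing introns. An annotated model that spans all introns of the new model was preferred where it had only slightly more differing introns. Intron sites and junctions were compared with all annotated models of the gene. Bases came from annotated exons. Shares are reads of a model over all reads of its gene, for genes of 20 reads or more per library. Shares were tested by Fisher's exact test and levels by an exact binomial test, both two-sided, with Benjamini-Hochberg adjustment over all models with at least 5 reads and a threshold of 0.05. Intervals and zero floors cover counting error only (95% Clopper-Pearson, 3 reads). Scripts were tested on simulated data. Python 3.11.15, scipy 1.17.1, edgeR 4.0.16 and DESeq2 1.42.0 were used, the last pair for scaling alternatives.

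Models named were the 20 with the most reads in the less covered library, the 12 with exon skipping and 8 with another new junction chosen likewise, the 10 with the largest share, up to 3 per gene list, called models and examples at the threshold. The members and lists were chosen with earlier results of these data known.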

Additional observations from a re-analysis of the deposited data

Results flagged for a closer look

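NIC models were also present in genes absent from the annotation, which the comparisons above do not use. They held 63 reads in replicate 1 and 117 reads in replicate 2, above the 3 reads that a count of 0 allows.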

How the results depend on the processing

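No paired analysis was possible because the series holds 1 group. The number of models moved from 1640 to 2960 with a minimum of 3 reads, to 735 with 10 and to between 692 and 959 with 1 library left out. Those with a new junction moved to 698, 129 and between 115 and 184, and those with exon skipping to 613, 108 and between 96 and 156. The median share of the gene, 5.73% over both libraries, became 3.36% with a minimum of 3 reads, 10.4% with 10, 5.89% with at least 2 reads in each library and 8.77 to 12.2% with 1 library left out. It was 7.21% without ISM and genomic models, 7.06% and 3.30% with genes of at least 10 and 50 reads, and, by alternatives chosen after seeing the data, 6.35% with annotated sites alone and 5.93% with class NIC in both libraries. The models called for level, 2, became 1 with the deeper library thinned, 1 with no minimum, 3 with TMM scaling, 3 with at least 10 reads and 11 with DESeq2 size factors, all 11 higher in replicate 2. DESeq2 scaling shifted all models by 0.38 and TMM by 0.21 (log2, replicate 2 over 1). The mean NIC share became 3.19% over models of at least 5 reads and 4.52% without ISM and genomic reads, and stayed lower in replicate 2. The share test called 0 models in all 6 alternatives. Rare models are limited by depth, and 308 of 1640 stood at the minimum.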
